A study of Mus musculus with 6 samples.

Results

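The 10 genes followed here encode enzymes known to take ubiquitin off histone H2B or H2A, or partners of these enzymes in the SAGA coactivator complex. They are the ubiquitin-specific proteases Usp22, Usp27x, Usp44, Usp49, Usp3, Usp7, Usp12 and Usp46, and the adaptor proteins Atxn7l3 and Eny2. The genes were picked by symbol and make up 10 of the 29955 genes in the expression table. Of the 10, 9 had enough reads to be tested among 16378 genes, and Usp44 did not.

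Ubiquitin is attached to H2B in transcribed genes by the ligase pair RNF20 and RNF40, and it is removed again by several proteases. USP22 does so inside SAGA, where ATXN7, ATXN7L3 and ENY2 hold it in an active shape. The other enzymes work outside SAGA, some of them with cofactors of their own, and most have further substrates besides histones.

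RNA-seq was done on mouse embryonic fibroblasts (MEFs) at passage 3, with 3 Rnf40+/+ and 3 Rnf40-/- libraries. In the Rnf40-/- cells, exons 3 and 4 of Rnf40 were flanked by loxP sites and removed by CreERT2, a tamoxifen-inducible recombinase expressed from the Rosa26 locus in all cell types. Deletion was started with 4-hydroxytamoxifen (4-OHT, 250 nM, 5 days), and 3 days without the drug followed. The methods derive MEFs from embryos homozygous for the loxP allele and carrying the CreERT2 transgene. The methods do not name the origin of the Rnf40+/+ cells sequenced here or say if these saw 4-OHT. Thus deletion and treatment cannot be told apart. Neither do they say if the 3 libraries of a genotype came from separate embryos or cultures, and p-values therefore measure only the spread between these samples. The values are reads per gene divided by a size factor for each library and are called normalized counts. The libraries held between 17053436 and 26344170 reads on genes, and 3 reads were worth 2.40 to 3.58 normalized counts. Since the RNA is from bulk cultures, fewer cells of a type and less RNA per cell cannot be told apart.

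The targeted gene was checked first. Rnf40 had normalized counts of 1278, 1195 and 1096 in Rnf40+/+ and 439, 519 and 487 in Rnf40-/- libraries, which matched the labels (log2 fold change -1.30, standard error 0.09, adjusted p = 4.25e-07, limma with Benjamini-Hochberg adjustment). All 9 fibroblast markers were present in every library, with a summed level of 354300 to 413800 normalized counts in Rnf40+/+ and 185400 to 199400 in Rnf40-/- libraries. By limma all but Dcn and Lum were lower, with log2 fold changes from -2.26 for Col1a2 to -0.26 for Vim. The 8 macrophage markers were also present, at sums of 5482 to 9389 in Rnf40+/+ and 3421 to 3767 in Rnf40-/- libraries. Most of this sum was Lyz2 (mean 5314 and 2264), which was lower by limma along with Tyrobp and Fcgr1, while Ptprc was higher (62.6 and 160.3) and Csf1r, Emr1, Cd68 and Itgam did not pass the test. The 5 endothelial markers summed to 130.2 to 198 and to 180.3 to 259.9, a sum of opposite differences. Of these, Pecam1 (mean 3.75 in Rnf40+/+ and 27.6 in Rnf40-/- libraries), Cdh5 (2.76 and 31.6) and Kdr (27.4 and 84.5) were higher and Emcn (126 and 55.3) was lower by limma, and Tie1 was not tested. The 5 epithelial markers summed to 26.5 to 97.9 and to 30.2 to 53.0. Genes of the Y chromosome summed to 146.9 in Rnf40+/+ replicate 1 and to at most 16.8 in the other libraries. Xist, the female marker of the same list, was at 9345 in Rnf40+/+ replicate 1 and at 7178 to 9616 in the others. All libraries thus held a high level of Xist. The part of these differences in the results was not tested. All 5 calls made below among the genes followed here held without Rnf40+/+ replicate 1 and without Rnf40+/+ replicate 3. The latter had the highest macrophage sum. These fits cannot separate genotype from the marker differences. With either library left out, the fibroblast and macrophage sums of the genotypes still did not overlap. Some calls in the other gene lists were lost without Rnf40+/+ replicate 1 or Rnf40+/+ replicate 3, among them those of Tada2b, Taf9b, Supt3h, Usp21 and Usp16.

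The proteases share a short stretch around the catalytic cysteine, the Cys box, by which the family is recognised. It is printed here to show how near the pairs of closely related genes are to each other, as reads were assigned to genes by sequence. The 36 coding bases are given 5′ to 3′ on the coding strand (annotation and genome of mm9), with the codon of the cysteine in capitals.
Usp22 (chr11:60976455-60976490, minus strand, exon 5 of 13): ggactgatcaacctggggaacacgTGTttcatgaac
Usp27x (chrX:6951718-6951753, minus strand, the single exon): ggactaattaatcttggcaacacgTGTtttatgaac
Usp12 (minus strand of chromosome 5, across exons 2 and 3 of 9): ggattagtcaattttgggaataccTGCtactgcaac
Usp46 (minus strand of chromosome 5, across exons 2 and 3 of 9): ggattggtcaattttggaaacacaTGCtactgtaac
Usp7 (chr16:8707773-8707808, minus strand, exon 6 of 31): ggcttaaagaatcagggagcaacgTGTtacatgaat
Usp3 (chr9:66391773-66391808, minus strand, exon 6 of 15): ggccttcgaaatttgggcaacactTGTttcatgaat
Usp49 (chr17:47809771-47809806, plus strand, exon 3 of 7): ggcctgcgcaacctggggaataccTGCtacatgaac
The boxes of Usp22 and Usp27x differ at 6 bases and those of Usp12 and Usp46 at 5, and each pair encodes the same residues. Over the whole protein, Usp22 and Usp27x were identical at 84.2% of 411 aligned residues, and Usp12 and Usp46 at 88.3% of 366. Despite this, the coding transcripts of Usp22, Usp27x, Usp12, Usp7, Usp44 and Atxn7l3 shared no stretch of 50 bases with protein-coding transcripts of other genes. The share of such stretches was 0.174% in Usp46, 0.648% in Usp3, 3.57% in Eny2 and 68.0% in Usp49. Noncoding genes were not searched, and 70 exon bases of Usp7 also belong to a miRNA gene on the opposite strand. The annotated Usp44 protein of 505 residues held no match to the box pattern. It comes from the only transcript of Usp44 in this annotation, and other sequences of the gene were not searched. A lack of the catalytic cysteine cannot be read from this.

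Of the 9 genes tested, 5 differed between the genotypes. Usp7, Usp12 and Usp22 rose in Rnf40-/- MEFs, and Atxn7l3 and Eny2 fell, with log2 fold changes from -0.58 to 0.59. Usp27x, Usp46, Usp3 and Usp49 did not pass the test. Thus 3 of 9 were higher, against 23.3% of all genes tested, and 2 of 9 were lower, against 24.1%. The genotypes did not overlap for the same 5 genes, against 56.5% of all genes tested. None of the 9 passed the criteria of the study (mean above 15, unadjusted p under 0.05 and a log2 fold change beyond 1 in size), which 9.95% of all genes did. These shares lay near the background, and the count alone is no result about these genes. The median log2 fold change of the 9 was 0.15, and that of all genes tested was -0.0035.

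**Figure D1:**
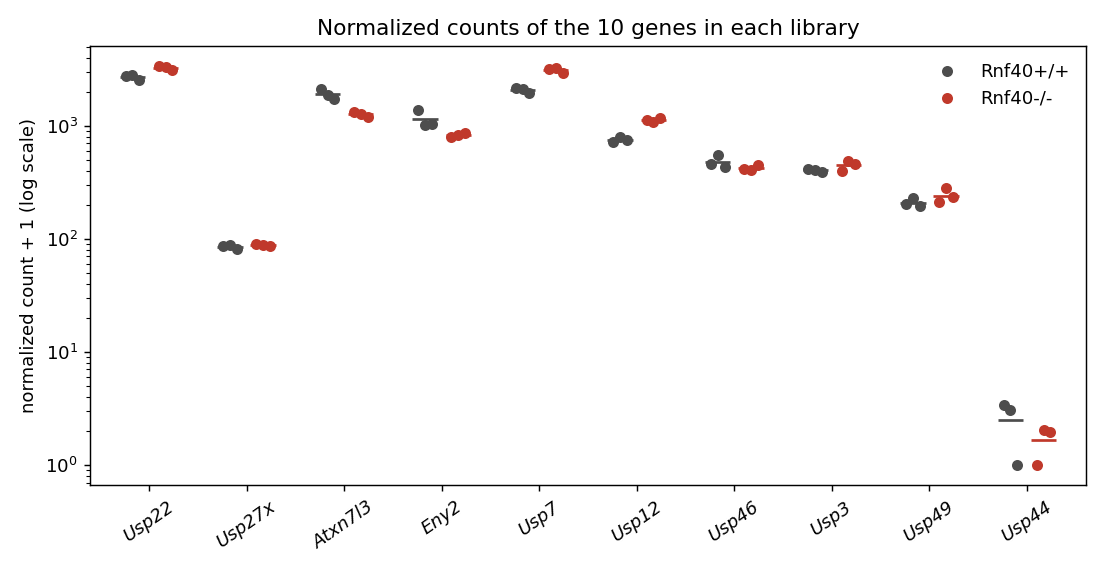
Normalized count plus 1 (vertical axis, log scale) of each of the 10 genes (horizontal axis) in 3 Rnf40+/+ (grey) and 3 Rnf40-/- (red) libraries, with a point per library and a short line at the group mean. The genotypes are apart for Usp22, Atxn7l3, Eny2, Usp7 and Usp12 and overlap for the others, and Usp44 lies near the bottom of the axis at 0 to 2 reads.

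The SAGA enzyme and its adaptors came first. Usp22, the catalytic subunit of the SAGA deubiquitinase module, lies on the minus strand of chromosome 11 (chr11:60965287-60988557, mm9). Its normalized counts were 2732, 2810 and 2542 in Rnf40+/+ and 3383, 3338 and 3098 in Rnf40-/- libraries. Every Rnf40-/- library was above every Rnf40+/+ library. The mean rose from 2695 ± 138 (SD, n = 3) to 3273 ± 153 (SD, n = 3), a log2 fold change of 0.28 (95% interval 0.14 to 0.43, adjusted p = 0.00437, limma with Benjamini-Hochberg adjustment). This was a small change, as 56.9% of the genes tested had a larger one in either direction.

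Atxn7l3 (chr11:102150614-102157945, minus strand) encodes the adaptor that binds the protease directly and is needed for its activity. Its normalized counts were 2103, 1852 and 1723 in Rnf40+/+ and 1309, 1271 and 1198 in Rnf40-/- libraries. All 3 Rnf40-/- libraries were lower than the lowest Rnf40+/+ library. The mean fell from 1892 ± 193 (SD, n = 3) to 1259.5 ± 56.4 (SD, n = 3), and the log2 fold change was -0.58 (95% interval -0.76 to -0.41, adjusted p = 0.000108, limma).

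Eny2 (chr15:44259657-44269231, plus strand), a protein of 101 residues, is shared between SAGA and TREX-2, a complex of mRNA export. Its normalized counts were 1369, 1012 and 1038 in Rnf40+/+ and 799, 833 and 857 in Rnf40-/- libraries. The genotypes were apart, but Rnf40+/+ replicate 1 was well above the other libraries. The mean fell from 1139 ± 199 (SD, n = 3) to 829.9 ± 29.1 (SD, n = 3), with a log2 fold change of -0.44 (95% interval -0.68 to -0.21, adjusted p = 0.00458, limma). Without that library it was -0.30 (adjusted p = 0.00837, limma). On the opposite strand, 132 of the exon bases of Eny2 (5.43%) also belong to Nudcd1, and the kit marked the strand of the RNA. Nudcd1 was lower too (log2 fold change -0.41, adjusted p = 0.0141, limma), though its genotypes overlapped. The use of strand in counting is not given in the sources used here, and a part of Nudcd1 reads in the Eny2 values was not tested.

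Thus Usp22 was higher and Atxn7l3 and Eny2 were lower in the same libraries, while the third partner, Atxn7, did not pass the test (log2 fold change -0.02, adjusted p = 0.860, limma). The ratio of Usp22 to Atxn7l3, both per kilobase of transcript, was 1.09, 1.27 and 1.24 in Rnf40+/+ and 2.16, 2.20 and 2.16 in Rnf40-/- libraries. The groups did not overlap (log2 difference 0.86). The exact two-sided permutation test gave p = 0.1 (0.133 after adjustment over 4 ratios), and 0.1 is the smallest p that 3 libraries against 3 allow. As Usp22 and Atxn7l3 were each apart between the genotypes, in opposite directions, this outcome was fixed. It adds nothing to the calls of these genes. The ratio of Atxn7l3 to Eny2 was 1.01, 1.20 and 1.09 in Rnf40+/+ and 1.07, 0.999 and 0.915 in Rnf40-/- libraries. These ranges overlapped (log2 difference -0.14, exact permutation p = 0.2, 0.2 after adjustment).

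Usp27x, an X-linked relative of Usp22 that uses Atxn7l3 and Eny2 outside SAGA, was present at a low level (chrX:6948402-6952956, minus strand). Its normalized counts were 84.8, 87.7 and 79.9 in Rnf40+/+ and 89.7, 86.6 and 85.0 in Rnf40-/- libraries, from 71 to 100 reads. The genotypes overlapped. The log2 fold change was 0.05 with a 95% interval of -0.30 to 0.40 (adjusted p = 0.821, limma), so a change as large as that of Usp22 lay within the interval. The ratio of Usp22 to Usp27x per kilobase was 31.1, 30.9 and 30.7 in Rnf40+/+ and 36.3, 37.1 and 35.1 in Rnf40-/- libraries (log2 difference 0.23, exact permutation p = 0.1, the smallest possible). Usp51, the remaining relative that shares these adaptors, had 1 read in all 6 libraries together.

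Usp12 and Usp46 are close paralogs that are both switched on by the WD-repeat proteins WDR48 and WDR20. Usp12 (chr5:147546385-147606582, minus strand) had normalized counts of 721, 788 and 751 in Rnf40+/+ and 1131, 1089.6 and 1169.9 in Rnf40-/- libraries. The groups were far apart compared with their spread, and the mean rose from 754 ± 33.5 (SD, n = 3) to 1130.1 ± 40.2 (SD, n = 3). The log2 fold change was 0.58 (95% interval 0.43 to 0.74, adjusted p = 4.57e-05, limma).

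Usp46 (chr5:74394487-74464455, minus strand) had normalized counts of 454, 556 and 427 in Rnf40+/+ and 412, 407 and 448 in Rnf40-/- libraries. The genotypes overlapped, and the highest value belonged to Rnf40+/+ replicate 2. The log2 fold change was -0.17, with a 95% interval of -0.41 to 0.07 (adjusted p = 0.216, limma). That interval did not reach the change of Usp12. The ratio of Usp12 to Usp46 per kilobase was 1.74, 1.55 and 1.92 in Rnf40+/+ and 3.00, 2.93 and 2.85 in Rnf40-/- libraries. It was higher in every Rnf40-/- library (log2 difference 0.76, exact permutation p = 0.1, the smallest possible, and 0.133 after adjustment).

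Usp7, known above all for taking ubiquitin off MDM2 and p53, also acts on H2B together with the metabolic enzyme GMPS. The gene lies at chr16:8688815-8792401 on the minus strand. Its normalized counts were 2147, 2114 and 1952 in Rnf40+/+ and 3206, 3215 and 2920.4 in Rnf40-/- libraries. The genotypes did not overlap, and the mean rose from 2071 ± 105 (SD, n = 3) to 3114 ± 168 (SD, n = 3). This was the largest of the 9 changes, a log2 fold change of 0.59 (95% interval 0.44 to 0.74, adjusted p = 2.62e-05, limma), though the interval overlapped that of Usp12. Of all genes tested, 27.5% had a larger change in size than Usp7.

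The other 3 enzymes did not pass the test or could not be tested. Usp3 (chr9:66362444-66440949, minus strand), which acts on H2A and H2B and is linked to the DNA damage response, had normalized counts of 411, 406 and 387 in Rnf40+/+ and 399, 482 and 463 in Rnf40-/- libraries. Rnf40-/- replicate 1 lay inside the Rnf40+/+ range (log2 fold change 0.15, 95% interval -0.06 to 0.37, adjusted p = 0.222, limma).

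Usp49 (chr17:47767639-47823687, plus strand), reported to act on H2B and to affect splicing, had normalized counts of 202, 227 and 196 in Rnf40+/+ and 209, 279 and 231 in Rnf40-/- libraries. The ranges overlapped (log2 fold change 0.19, 95% interval -0.10 to 0.49, adjusted p = 0.257, limma). The value is uncertain, because 65.0% of its annotated exon bases also belong to Med20 on the same strand. Med20, a Mediator subunit, had means of 1007 in Rnf40+/+ and 1269 in Rnf40-/- libraries (log2 fold change 0.33, adjusted p = 0.00136, limma), and how its reads were kept from those of Usp49 is not given in the sources used here.

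Usp44, a mitotic checkpoint protease that also acts on H2B, had 2, 2 and 0 reads in Rnf40+/+ and 0, 1 and 1 reads in Rnf40-/- libraries. It lies at chr10:93294300-93311269 on the plus strand. All of these are below the 3 reads taken as the limit of detection, so a difference was not detectable at this depth.

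**Figure D2:**
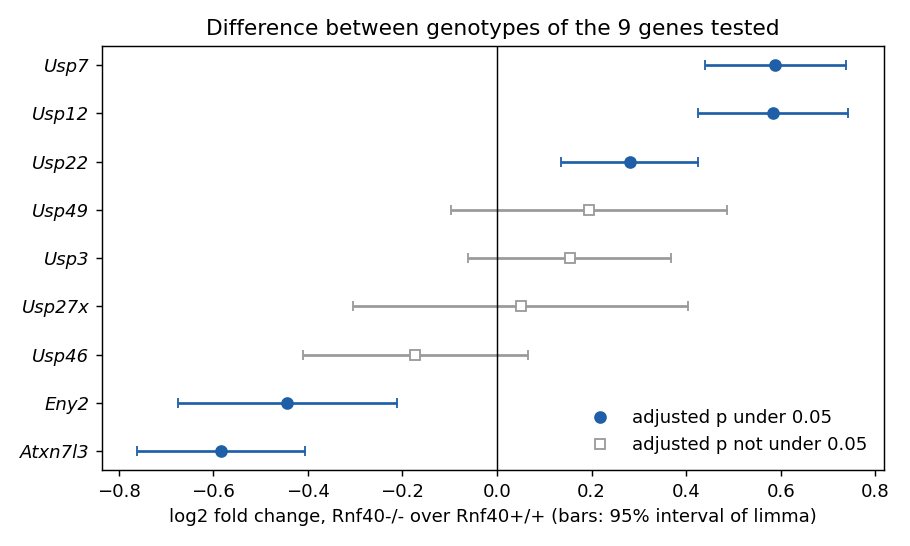
Log2 fold change (Rnf40-/- over Rnf40+/+, horizontal axis) of the 9 genes tested, with the 95% interval of limma as a bar, filled circles for an adjusted p under 0.05 and open squares for the others. The intervals of Usp7, Usp12 and Usp22 lie above 0 and those of Atxn7l3 and Eny2 below it, while those of Usp27x, Usp46, Usp3 and Usp49 cross 0.

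To compare genes with each other, normalized counts were divided by the length of the longest annotated transcript in kilobases. In Rnf40+/+ libraries the mean level per kilobase was 608 ± 31.2 (SD, n = 3) for Usp22, 509.8 ± 52.1 for Atxn7l3, 469 ± 81.9 for Eny2 and 377 ± 19.1 for Usp7. Next came Usp12 at 174 ± 7.75 and Usp46 at 101 ± 14.4. Usp3 at 71.6 ± 2.21, Usp49 at 25.2 ± 2.04 and Usp27x at 19.7 ± 0.928 followed, with Usp44 last. The neighbours Atxn7l3 and Eny2 did not differ beyond their spread. In Rnf40-/- libraries Usp22 was again first, at 738 ± 34.6, but Usp7 was next at 567 ± 30.5, ahead of Eny2 at 342 ± 11.97 and Atxn7l3 at 339 ± 15.2. Usp7 ranked 4 in each Rnf40+/+ library and 2 in each Rnf40-/- library. The order depends on the length used. On the mean of all libraries, with the coding length 6 of the 10 genes held their rank, Usp22 ranked 2, and Usp7 ranked 5 instead of 2. The ranks in single libraries were not repeated with that length.

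**Figure D3:**
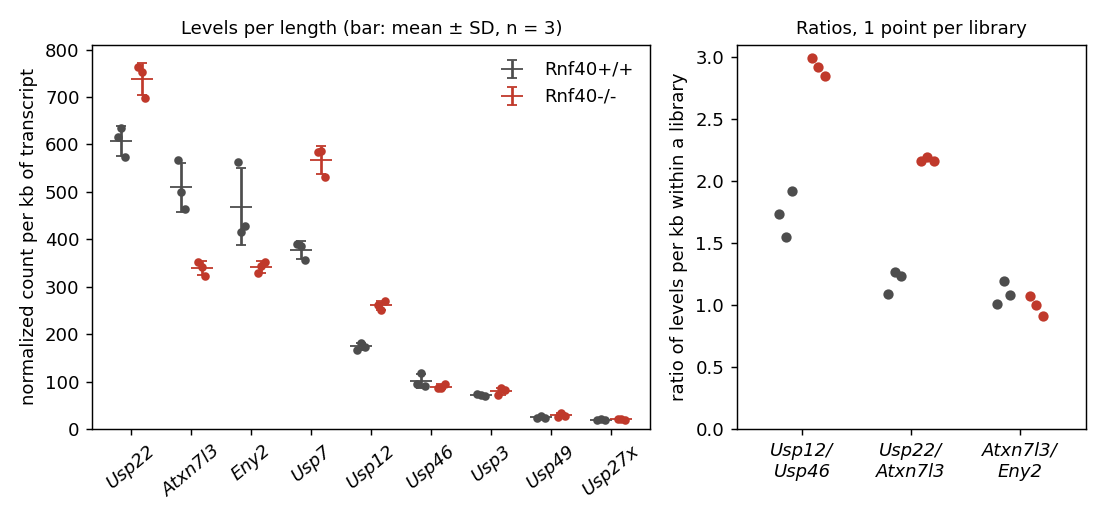
Left, normalized counts per kilobase of transcript (linear axis from 0) of the genes other than Usp44, with a point per library and bars for the mean and SD of 3 Rnf40+/+ (grey) and 3 Rnf40-/- (red) libraries. Right, ratios of these levels for 3 gene pairs, with a point per library, where Usp22 to Atxn7l3 sits at 1.09 to 1.27 in Rnf40+/+ and 2.16 to 2.20 in Rnf40-/- libraries, Usp12 to Usp46 at 1.55 to 1.92 and 2.85 to 3.00, and Atxn7l3 to Eny2 overlaps.

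Promoter sequences, 250 bases before the gene start given by RefSeq on build GRCm38.p6, were held for 7 of the 10 genes and not for Usp22, Usp44 or Eny2. These starts were not matched to the mm9 gene spans given above and can belong to another transcript. They were searched on both strands for 5 motifs. The CCAAT box was taken as the letters of its name and the GC box as GGGCGG. The motif of ETS factors was taken as CCGGAAG, that of E2F factors as GGCGGGAA, which can overlap a GC box, and the cell cycle element CHR as TTTGAA. The 7 promoters held 11 to 55 CpG dinucleotides, against a median of 6 and an upper quartile of 16 over 32851 promoters. A GC box was present in 6 of 7 and in 32.7% of all promoters, and a CCAAT box in 3 of 7 and 33.8%. The GC box itself holds a CpG, and the promoters set against these 7 were not matched for CpG content. The share of GC boxes therefore cannot be read as particular to these genes. The ETS, E2F and CHR motifs were in 0 of 7, and in 6.91%, 1.86% and 16.0% of all promoters. The promoters of the gene with the largest rise and the gene with the largest fall are shown with matches in capitals, those on the other strand as their complement.
Usp7 (chr16:8738343-8738592, minus strand): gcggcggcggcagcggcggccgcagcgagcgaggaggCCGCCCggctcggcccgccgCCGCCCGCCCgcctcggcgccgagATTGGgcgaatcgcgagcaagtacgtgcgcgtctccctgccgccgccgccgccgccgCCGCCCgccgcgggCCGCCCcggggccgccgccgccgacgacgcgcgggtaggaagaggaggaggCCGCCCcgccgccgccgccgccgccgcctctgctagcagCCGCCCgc
Atxn7l3 (chr11:102296630-102296879, minus strand): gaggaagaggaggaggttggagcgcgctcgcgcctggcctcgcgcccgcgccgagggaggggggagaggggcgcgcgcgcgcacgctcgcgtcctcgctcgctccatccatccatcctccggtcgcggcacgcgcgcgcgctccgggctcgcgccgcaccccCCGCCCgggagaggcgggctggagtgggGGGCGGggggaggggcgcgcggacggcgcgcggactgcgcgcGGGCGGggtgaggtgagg
Both are GC-rich and hold several GC boxes, while of the pair only that of Usp7 holds a CCAAT box. A match is a description of the letters and not a bound site.

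Of 21 other SAGA subunits, all tested, 4 were higher in Rnf40-/- MEFs, against 23.3% of all genes tested, and 9 were lower, against 24.1%. The other 8 did not pass the test. The 21 genes had a median log2 fold change of -0.05 against -0.0035 for all genes. Among the acetyltransferases, Kat2b rose from 352 ± 60.4 (SD, n = 3) to 556 ± 35.9 (SD, n = 3), a log2 fold change of 0.67 (adjusted p = 0.00086, limma). Its paralog Kat2a was at 0.05 (adjusted p = 0.636, limma). Other subunits of the acetyltransferase module fell, with log2 fold changes of -0.71 for Ccdc101 (now Sgf29) and -0.44 for Tada3, while Tada2b rose by 0.26.

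In the core of the complex, the TAF subunits Taf6l (-0.90), Taf10 (-0.71) and Taf9b (-0.67) and the scaffold Fam48a (now Supt20, -0.55) fell in log2 fold change, while Taf12 (0.36) and Supt3h (0.32) rose. Taf10, shared with TFIID, went from 1089 ± 168 to 663 ± 43.3 normalized counts (SD, n = 3). Trrap, the large subunit bound by activators, fell by 0.42, and the splicing factor Sf3b3 by 0.30, on the log2 scale. Of the Atxn7 paralogs that anchor the deubiquitinase module, Atxn7l2 fell by 0.99 on the log2 scale, from 105 ± 33.4 to 51.6 ± 11.9 normalized counts (SD, n = 3). The call of Supt3h was lost with any 1 of the 6 libraries left out (adjusted p up to 0.140, limma). That of Tada2b was lost without Rnf40+/+ replicate 1, Rnf40-/- replicate 1 or Rnf40-/- replicate 3 (up to 0.152), and that of Taf9b without any of these or Rnf40+/+ replicate 2 (up to 0.102).

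Of 3 cofactors of the enzymes, 2 rose and 1 did not pass the test, too few to set against the share of all genes. Wdr48 rose from 1386 ± 29.8 to 1775 ± 93.6 normalized counts (SD, n = 3; log2 fold change 0.36, adjusted p = 0.000987, limma), and Wdr20a, the other activator of USP12 and USP46, rose by 0.47 in log2 (adjusted p = 0.000546, limma). Usp1, no cofactor but another protease that pairs with WDR48, removes ubiquitin from FANCD2 and PCNA. It fell from 576 ± 47.3 to 348 ± 23.7 (log2 fold change -0.72, adjusted p = 8.54e-05, limma). Gmps, the partner of USP7, was at 0.10 (adjusted p = 0.255, limma). Of the 5 other TREX-2 subunits that can hold ENY2, Cetn3 fell by 0.27 in log2 (adjusted p = 0.0130, limma), a call lost without Rnf40-/- replicate 2 (adjusted p = 0.0552), and the other 4 did not pass the test.

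Of 9 other proteases that act on histones, 8 were tested. By limma 5 rose, against 23.3% of all genes tested, and 1 fell, against 24.1%, with a median log2 fold change of 0.23 against -0.0035 for all genes. Without Rnf40-/- replicate 1 the number that rose was 3, and with any other library left out it was 4 or 5. The H2A enzyme Mysm1 rose by 0.58 in log2, from 576 ± 40.5 to 861 ± 90.8 normalized counts (SD, n = 3). Usp48 and Usp10 each rose by 0.43, Bap1 by 0.27 and Usp16 by 0.19 on the same scale, while Usp21 fell by 0.32. The call of Usp16 was lost without Rnf40+/+ replicate 3 or any Rnf40-/- library (adjusted p up to 0.123, limma). That of Usp21 was lost without Rnf40+/+ replicate 1 or Rnf40-/- replicates 1 or 2 (up to 0.111), and that of Bap1 without Rnf40-/- replicate 1 (0.0524). Those of Mysm1, Usp48 and Usp10 held with each library left out. Usp36 and Brcc3 did not pass the test.

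Of 53 rows whose symbol begins with Usp and a number, 46 were tested, and 18 were higher, against 23.3% of all genes tested. A further 10 were lower, against 24.1%, and 18 did not pass the test. The median log2 fold change was 0.17, against -0.0035 for all genes. Within this family Usp7 had the smallest of the 3 leading rises among called genes with a mean above 15 whose genotypes did not overlap.

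**Figure D4:**
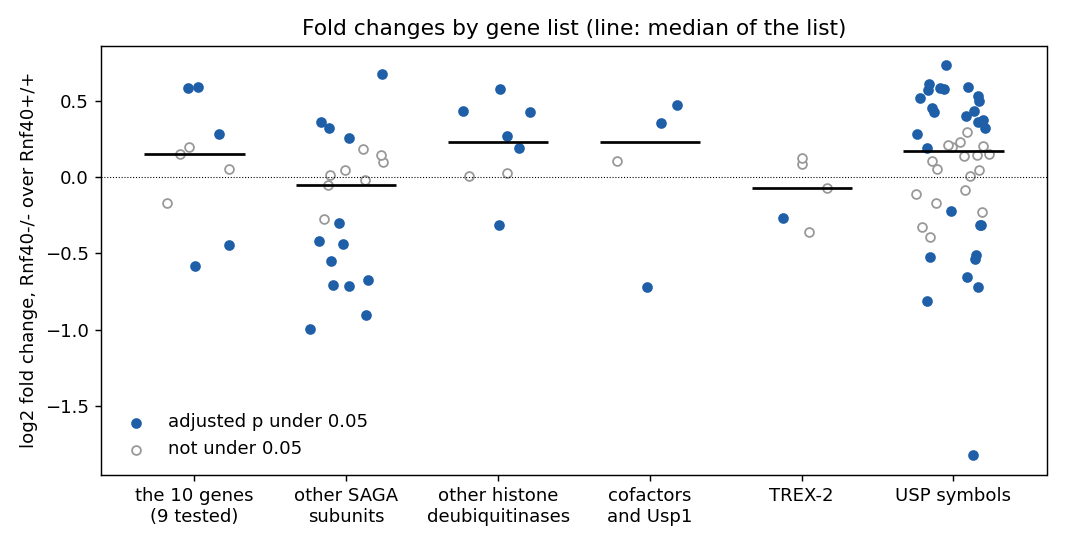
Log2 fold change (Rnf40-/- over Rnf40+/+, vertical axis) of each gene tested in the 10 genes and in the lists of other SAGA subunits, other histone deubiquitinases, cofactors, TREX-2 and USP symbols (Usp1 stands with the cofactors), with a point per gene (filled for an adjusted p under 0.05) and a line at the list median. The medians are 0.23 for the 3 cofactors with Usp1 and for the other histone deubiquitinases, 0.17 for the USP symbols and -0.05 for the other SAGA subunits.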

How the data were processed

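RNA-seq of 3 Rnf40+/+ and 3 Rnf40-/- MEF libraries was analysed, grouped by the genotype in the labels. The deposited signal is a read count per gene over a size factor, made by the authors with DESeq (version 1.14.0). Reads were mapped to mm9, and Bowtie2 (version 2.1.0) is among the tools in the submitters' processing notes, without a role for these libraries. The counting tool is not given in the sources used here. In the deposited signal, 100% of positive values were whole multiples of 1 read (tolerance 0.01), so the reads were recovered. Within a genotype, each pair of libraries differed by more than the noise of sampling (chi-square per gene from 5.31 to 28.5).

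As the table holds normalized values, limma (version 3.58.1, lmFit and eBayes with a trend) was run on log2(normalized count + 1), with genotype as the only term, on genes passing filterByExpr of edgeR (version 4.0.16), with Benjamini-Hochberg adjustment over all of them. A gene was called at an adjusted p under 0.05. The pseudocount understates the fold change of low genes. Alternatives were DESeq2 (version 1.42.0) size factors and Wald test, TMM, the edgeR quasi-likelihood test, other filters and pseudocounts, a replicate block and each library left out. Ratios within libraries were compared by an exact permutation test (scipy 1.17.1), and proteins were aligned with Biopython (version 1.88). The ratios were not among the planned comparisons. R (version 4.3.3) and Python (version 3.11.15) were used.

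Members and lists were chosen with earlier results of these data known. Named were the 10 genes, Rnf40, called members of each list and, of the USP family, the 3 largest rises and falls with a mean above 15 and no overlap. Nudcd1, Med20 and list members that were not called were named after their values were seen. Older symbols were used as in the table (Wdr20a for Wdr20, Shfm1 for Sem1, Emr1 for Adgre1). The family list holds Usp6nl, which is not a protease. ChIP-seq data were not used here.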

Additional observations from a re-analysis of the deposited data

How the results depend on the processing

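All 5 calls among the 10 genes, and the call of Rnf40, held in each of 15 alternative fits. The fit with DESeq2 size factors repeated the main fit (3809 genes higher and 3955 lower in both). The deposited values were already divided by size factors of DESeq, so that fit is no separate check. The log2 fold change ranged from 0.24 to 0.32 for Usp22, 0.55 to 0.63 for Usp7, 0.55 to 0.62 for Usp12, -0.65 to -0.50 for Atxn7l3 and -0.52 to -0.30 for Eny2. By the criteria of the study, which need a log2 fold change beyond 1, 696 genes were higher and 934 lower by limma, with 0 of the 10 genes, 0 of the other SAGA subunits, 0 of the other histone deubiquitinases, 0 of the cofactors and Usp1, 0 of TREX-2 and, of the USP family, 0 higher and 1 lower. These criteria change the mean, the p and the fold limit together, and their parts were not separated over all genes. Each of the 5 genes called here met the limits of mean and p, but had a log2 fold change under 1 in size. Other SAGA subunits higher numbered 2 with the Wald test of DESeq2 and 2 with no filter, and 2 to 3 with a library left out. Other histone deubiquitinases numbered 3 to 5 higher and 0 to 1 lower, and TREX-2 subunits 0 to 2 lower, with a library left out. With the coding length 6 genes and with the median transcript length 5 genes held their rank per kilobase. The replicate numbers did not pair the libraries (correlations of deviations 0.0118 to 0.0212), and with a replicate block 4021 genes were higher and 4196 lower, with TREX-2 at 2 lower and the 10 genes at 3 higher and 2 lower. The causes of the other shifts were not tested. Depth limits Usp44, Usp51 and, in part, Usp27x.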

Other observations

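Among USP proteases outside the 10 genes, Usp11 had the largest fall of those tested, from 157.5 ± 46.5 to 42.5 ± 4.22 normalized counts (SD, n = 3; log2 fold change -1.82, adjusted p = 5.39e-05, limma with Benjamini-Hochberg adjustment). Its values were 193, 105 and 174 in Rnf40+/+ and 45.9, 43.8 and 37.8 in Rnf40-/- libraries. Of the 46 genes of the family tested with limma, it alone passed the criteria of the study. Usp35 fell from 219.9 ± 7.60 to 126 ± 21.0 (log2 fold change -0.82, adjusted p = 0.00073, limma). Among called genes with a mean above 15 and no overlap, the largest rises were those of Usp53, from 193 ± 32.7 to 319 ± 40.5 (log2 fold change 0.73, adjusted p = 0.00129, limma), and Usp54, from 185 ± 5.02 to 284 ± 28.6 (0.61, adjusted p = 0.00114, limma).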
